A study of Rattus norvegicus albus with 6 samples.

Results

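Caveolae are small flask-shaped pits of the plasma membrane that buffer membrane tension and gather signalling proteins, and they are abundant in mesenchymal, endothelial, muscle and fat cells. Caveolins embed in the membrane and form the bulb, and a coat of cavins assembles on its cytoplasmic face. EHD2, an ATPase at the neck, holds the pit at the surface, and the F-BAR protein PACSIN2 bends the membrane there. The 8 genes described here encode the coat proteins Cavin1, Cavin2 and Cavin3, the caveolins Cav1, Cav2 and Cav3, and the neck proteins Ehd2 and Pacsin2. They were found by exact gene symbol among 14322 named genes, and all 8 were present. The set was selected on a measured value, the difference of Cavin2 between the FJ9 array and its vehicle, the largest decrease of any filtered gene, so every difference of these genes under FJ9 is a description and supports nothing further. The genes after it in that order were Scd2 (−4.27) and Mx2 (−4.16), against −5.04 for Cavin2.

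The cells were hepatic stellate cells taken from rats, cultured for 7 days on plastic with 10% serum until activated into myofibroblasts. DKK-1, a secreted antagonist of the Wnt co-receptors, was expressed from an adenovirus (Ad.DKK-1) and set against a virus for green fluorescent protein (named Ad.GFP), both at a multiplicity of infection of 200 for 24 h in 5% serum and then 24 h without serum. The compounds were ICG-001 at 10 µM, an inhibitor of the interaction between β-catenin and its coactivator CBP, and FJ9 at 200 µM, an inhibitor of the interaction between Frizzled and Dishevelled. Each was given for 24 h without serum and set against its own vehicle. Each of the 6 groups was 1 array of RNA pooled from 3 to 4 rats. The study asked which genes the canonical Wnt pathway regulates. No group had a replicate, so no difference below has a replicate check and none was tested.

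Levels are log2 values, and a difference is the treated array minus its own control on that scale. A difference of at least 1.5-fold in either direction was counted, which is 0.58 on the log2 scale. The difference between the vehicle arrays is the nearest measure of how far untreated pools differ, and its standard deviation over genes was 0.34. Of 10025 genes past a filter on mean level, 7.64% lay at least 1.5-fold apart between the vehicle arrays (2.44% higher and 5.20% lower on the FJ9 vehicle), and none of the 8 caveolar genes did. Cav3 was under that filter and the other 7 genes passed it. The level of a probe set depends on its probes, so levels were compared between arrays and not between genes. Array medians lay between 7.01 and 7.28. Of the markers for stellate cells and myofibroblasts, 19 of 20 were measured and 17 passed the level filter. They included Col1a1, a fibrillar collagen, at 12.57 to 12.98 and Lrat, which esterifies retinol, at 7.18 to 11.96. Acta2 was not measured, and Ngfr (5.56 to 6.77) and Gfap (5.08 to 6.43) did not pass the filter.

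**Figure D1:**
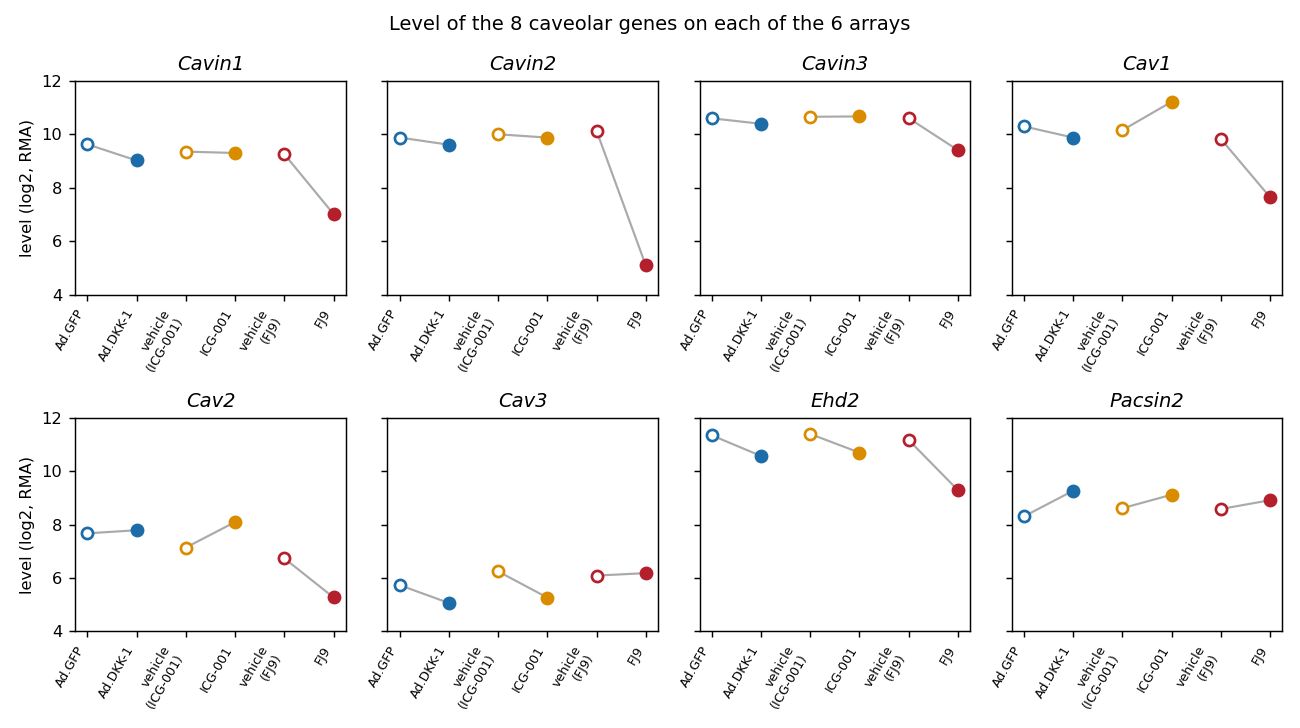
Log2 level of each of the 8 genes (vertical axis, the same in every panel) on the 6 arrays; open circles are controls, filled circles the treated arrays, and a line joins each treated array to its own control. On the FJ9 array Cavin2 read 5.10 against 10.14 on its vehicle array, and Cav1 read 11.22 with ICG-001 against 7.64 with FJ9.

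With FJ9, 6 of the 8 genes were at least 1.5-fold lower and none was higher. The 6 are the 3 cavins, Cav1, Cav2 and Ehd2, while Cav3 and Pacsin2 stayed within 1.5-fold. For scale, 14.8% of the 10025 genes were at least 1.5-fold lower with FJ9 and 11.6% higher, 26.4% in either direction, but this contrast chose the set and nothing is read from the comparison. The median difference was −1.67 over the 8 genes and −1.88 over the 7 past the level filter, against 0.01 over all filtered genes.

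Cavin2, a coat protein that binds phosphatidylserine and shapes the curved membrane, read 9.88 with Ad.GFP, 9.61 with Ad.DKK-1, 10.01 and 9.88 with the vehicle and ICG-001, and 10.14 and 5.10 with the vehicle and FJ9. The other 5 arrays lay between 9.61 and 10.14, and the FJ9 array stood far below them. Its difference of −5.04 is a 32.9-fold lower signal. On the FJ9 array only 8.36% of all probe sets read lower than 5.10, whereas 88.9% read lower than Cavin2 on the vehicle array. The deposited values have a soft floor at 4, so a signal this low may understate the size of the difference. In RNA from whole cultures, fewer cells of a type and less RNA per cell cannot be told apart.

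Cavin1, the coat protein required to form caveolae in every tissue studied, read 9.26 on the vehicle array and 7.02 with FJ9, a 4.73-fold lower signal. On the other 4 arrays it ran from 9.02 to 9.63. Cavin3, a coat protein first described as a binding partner of protein kinase C delta, read 10.61 on the vehicle array and 9.41 with FJ9, a difference of −1.20. Its 3 control arrays lay within 0.06 of each other, the narrowest spread among the 8 genes. The cavins thus differed in size, from 2.30-fold for Cavin3 to 32.9-fold for Cavin2, and all 3 had their lowest level on the FJ9 array.

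Cav1, the caveolin that drives formation of the bulb outside striated muscle, read 9.83 on the vehicle array and 7.64 with FJ9, a 4.55-fold lower signal. Cav2, which depends on Cav1 to reach the surface, read 6.73 and 5.27, a 2.76-fold lower signal. Its FJ9 value lay low on the array, above only 11.0% of probe sets. Cav2 was measured by 2 probe sets that differed by at most 0.0043 on any array, so they count as 1 measurement. Ehd2 read 11.16 on the vehicle array and 9.29 with FJ9, a 3.67-fold lower signal. Among 10025 genes ordered from the largest decrease with FJ9, Cavin1 stood at 70, Cav1 at 80, Ehd2 at 135, Cav2 at 287 and Cavin3 at 443.

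Pacsin2 and Cav3 did not share this pattern. Pacsin2 read 8.58 on the vehicle array and 8.91 with FJ9, a difference of 0.33 that is smaller than the standard deviation between the vehicle arrays. Cav3, the muscle caveolin, read 6.09 and 6.18. Its levels on all 6 arrays ran from 5.06 to 6.24, above 12.2% to 29.9% of probe sets, and no detection calls were used, so these values do not show that the gene was expressed.

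**Figure D2:**
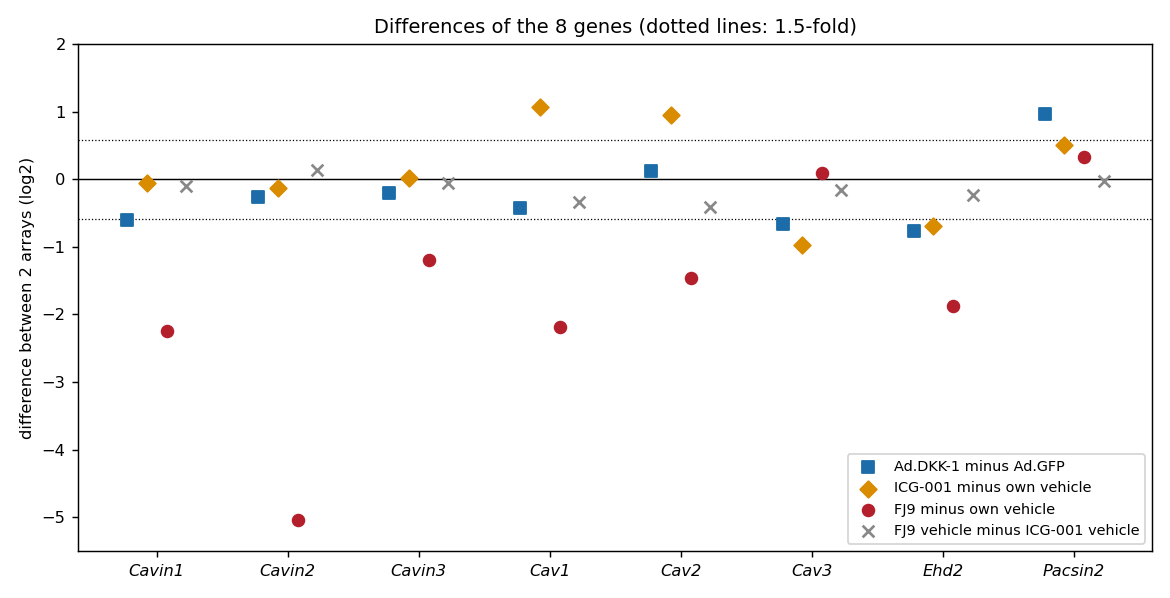
Log2 difference between the arrays of each comparison (vertical axis) for each of the 8 genes; symbols mark the comparison, crosses the vehicle arrays against each other, and dotted lines 1.5-fold. FJ9 differences run from −5.04 to 0.33, while every cross lies between the dotted lines.

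With ICG-001 both caveolins of non-muscle cells were higher. Cav1 read 10.16 on the vehicle array and 11.22 with ICG-001, a difference of 1.07 or 2.09-fold. The ICG-001 value was the highest of the 6 arrays and the 3 controls lay between 9.83 and 10.30. Cav2 read 7.14 and 8.09, a difference of 0.96 or 1.94-fold. That array was again the highest, but the Cav2 controls ranged over 0.94, from 6.73 to 7.67, about as wide as the difference from its own vehicle. The highest of these controls was Ad.GFP, which also differed from the vehicles by virus and 5% serum. Between the vehicle arrays Cav2 differed by −0.40. With the other vehicle as control the differences were 1.40 for Cav1 and 1.36 for Cav2. Of the 10025 genes, 12.6% were at least 1.5-fold higher with ICG-001, and Cav1 stood at 226 and Cav2 at 341 from the largest increase.

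The cavins showed no such difference with ICG-001. Cavin1 read 9.36 on the vehicle array and 9.30 with ICG-001, Cavin2 10.01 and 9.88, and Cavin3 10.66 and 10.67. All 3 differences, from −0.13 to 0.01, were smaller than the standard deviation between the vehicle arrays, and each took the other sign under at least 1 other scaling or control. Ehd2 read 11.39 and 10.69, a difference of −0.70. It kept the lower direction in all 5 alternatives but passed 1.5-fold in only 3 of them, with a range of −0.73 to −0.47. Among those 3 is the mean of all probe sets, which repeats the value because Ehd2 has 1 probe set. Pacsin2 read 8.61 and 9.12, within 1.5-fold at 0.51, but past it when arrays were centred on their medians (0.68). Cav3, under the level filter, read 6.24 and 5.26, a difference of −0.98 that ranged from −0.98 to −0.76 over the 5 alternatives. The −0.98 end is the mean of all probe sets, which repeats the value of its 1 probe set.

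Counted together, 2 of the 8 genes lay above their vehicle by 1.5-fold or more with ICG-001 and 2 below it. Of the 7 past the level filter, which leaves out Cav3, 2 lay above and 1 below. The share past 1.5-fold in either direction over all filtered genes was 25.7%, with 12.6% higher and 13.1% lower. The median over the 8 genes was −0.02 and over the 7 past the level filter 0.01, against 0.01 over all filtered genes. Cav1 and Cav2 lay above 0 and Ehd2 and Cav3 below it.

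The FJ9 and ICG-001 comparisons share no array, and their doses differ, so the values are set side by side without a test. The FJ9 difference minus the ICG-001 difference was −4.91 for Cavin2, −3.25 for Cav1, −2.42 for Cav2 and −2.19 for Cavin1. It was −1.21 for Cavin3, −1.18 for Ehd2, −0.18 for Pacsin2 and 1.07 for Cav3. Cav1 and Cav2 were past 1.5-fold in opposite directions under these compounds. Ehd2 was lower under both. The cavins were past 1.5-fold with FJ9 and not with ICG-001, and with 1 array per group this contrast was not tested.

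With Ad.DKK-1, Ehd2, Cavin1 and Cav3 were at least 1.5-fold lower and Pacsin2 was higher. Over all filtered genes 20.8% were lower and 14.5% higher, 35.2% in either direction, so 4 of 8 is not far from the background. Of the 7 genes past the level filter, which leaves out Cav3, 2 were lower and 1 higher. Dkk1 had a level of 6.01 on the Ad.DKK-1 array and 5.85 with Ad.GFP, and the labels do not say which species' gene the virus carries, so this probe set does not check that label. Ehd2 read 11.34 with Ad.GFP and 10.57 with Ad.DKK-1, a difference of −0.77. Cavin1 read 9.63 and 9.02, a difference of −0.60 that sits close to the 1.5-fold limit and fell inside it when each array was centred on its median (−0.51). Cavin2 differed by −0.27, Cavin3 by −0.21 and Cav1 by −0.42, all within 1.5-fold. Cav2 read 7.67 and 7.79, a difference of 0.12.

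Pacsin2 went the other way with Ad.DKK-1. It read 8.31 with Ad.GFP and 9.27 with Ad.DKK-1, a 1.95-fold higher signal, and stood at 456 of 10025 genes from the largest increase. The Ad.GFP array was the lowest of the 6 for Pacsin2 and the Ad.DKK-1 array the highest. The treated array was above its own control in all 3 comparisons, although the differences for ICG-001 and FJ9 were within 1.5-fold as deposited. Cav3, under the level filter, read 5.73 and 5.06, a difference of −0.67 that passed 1.5-fold in 1 of 4 alternatives. That alternative was the mean of all probe sets, which repeats the value because Cav3 has 1 probe set. The difference was within 1.5-fold with median centring (−0.575), quantile normalization (−0.520) and loess correction (−0.530). The median over the 8 genes was −0.34, over the 7 past the level filter −0.27, and over all filtered genes −0.07.

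Ehd2 was the only one of the 8 genes at least 1.5-fold lower in all 3 treatments as deposited. With ICG-001 it came within 1.5-fold when arrays were centred on their medians (−0.52) or the other vehicle was the control (−0.47). Its controls read 11.16 to 11.39 and its treated arrays 9.29 to 10.69, so every treated array lay below every control. Cavin2 met this ordering too, but barely: its ICG-001 array read 9.881 and its lowest control, Ad.GFP, 9.883. Of the filtered genes, 3.14% were at least 1.5-fold lower in all 3 treatments and 13.2% had all treated arrays below all controls. Cavin1 was lower than its control in each treatment, but its value with ICG-001 (9.30) lay above the vehicle of FJ9 (9.26).

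Related genes were examined to see how far the pattern of the caveolar set extended. Among other caveolar proteins and their scaffold partners, 14 of 15 listed genes were measured and 4 were at least 1.5-fold lower with FJ9 and none higher, with a median of −0.31, where 14.8% of filtered genes were lower and 11.6% higher. Ror1, a receptor-like protein that scaffolds caveolins and cavins, read 8.23 on the vehicle array and 6.90 with FJ9. Ehd3 and Ehd4, relatives of Ehd2, read 11.01 and 9.92 on the vehicle array and 9.91 and 8.99 with FJ9. Cavin4, the muscle cavin, was among the 4 lower genes but did not pass the level filter, and its difference was −0.59. The F-BAR relatives Pacsin1 (0.08) and Pacsin3 (0.19) stayed within 1.5-fold with FJ9, as Pacsin2 did.

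The same list had 1 gene higher and 3 lower with ICG-001, median 0.14, and none higher and 2 lower with Ad.DKK-1, median −0.26. Of the filtered genes 12.6% were higher and 13.1% lower with ICG-001, and 14.5% higher and 20.8% lower with Ad.DKK-1. With ICG-001, Ehd4 differed by −0.74, Pacsin1 by −0.72 and Stx6, a trafficking syntaxin, by 0.62. With Ad.DKK-1 the lower genes were Ror1 (−0.79) and Pacsin1 (−0.66). Pacsin1 also differed by −0.59 between the vehicle arrays.

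Of the signalling proteins and receptors known in caveolae, 14 of 16 were measured. With Ad.DKK-1 6 were lower and none higher, with ICG-001 2 were lower and none higher, and with FJ9 6 were lower and 1 higher. Of all filtered genes 20.8%, 13.1% and 14.8% were lower and 14.5%, 12.6% and 11.6% higher. The 2 of 14 lower with ICG-001 is thus at the background. Medians were −0.47, −0.09 and −0.25 in that order. Nt5e, the ectonucleotidase CD73 that makes adenosine, differed by −2.02, −1.71 and −0.99, and Ptgis, the prostacyclin synthase, by −1.46, −1.88 and −0.97, again for Ad.DKK-1, ICG-001 and FJ9. Their levels on the 3 treated arrays all lay below those on the 3 control arrays, as for 13.2% of filtered genes. Nos3, the endothelial nitric oxide synthase that caveolin-1 binds, differed by −1.66 with Ad.DKK-1 but by 0.18 with FJ9. Trpc1, a cation channel subunit, differed by −0.80 with FJ9.

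Flotillins scaffold membrane rafts without caveolins, and the medians of the pair were −0.78 with Ad.DKK-1, 0.27 with ICG-001 and −0.55 with FJ9. Flot1 read 9.38 on the vehicle array and 8.56 with FJ9, and 9.66 and 10.17 with the vehicle and ICG-001. Flot2 read 9.23 and 8.95 with the vehicle and FJ9, and 9.62 with Ad.GFP against 8.61 with Ad.DKK-1. Genes of clathrin-mediated endocytosis, the other main coated route of uptake, had 5 of 19 measured members lower with FJ9 and none higher, median −0.32, against 14.8% lower and 11.6% higher over all filtered genes. Amph, which bends membranes at clathrin pits, had the largest of these differences (−2.05). Synj1, a lipid phosphatase of uncoating, differed by −0.74 and Itsn1, a scaffold, by −0.69. The clathrin chains Clta, Cltb and Cltc differed by 0.00, −0.14 and −0.32.

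The clathrin list had 1 member higher and 1 lower with ICG-001 and 1 higher and 3 lower with Ad.DKK-1. These are below or near the shares of all filtered genes (13.1% and 20.8% lower, 12.6% and 14.5% higher). Snap91, a clathrin assembly protein, was the higher one in both, at 1.69 and 1.07. Other F-BAR and BAR proteins had 12 of 17 members measured, with 1 higher and 2 lower with FJ9, 2 higher and 3 lower with ICG-001, and none higher and 5 lower with Ad.DKK-1. In that order 14.8%, 13.1% and 20.8% of all filtered genes were lower and 11.6%, 12.6% and 14.5% higher. The 2 of 12 lower with FJ9 and the 2 of 12 higher with ICG-001 are thus close to the background. Fnbp1, which links membrane bending to actin, differed by −1.32, −1.26 and −0.85 under Ad.DKK-1, ICG-001 and FJ9. Its relative Fnbp1l differed by 1.09 with ICG-001 and 0.98 with FJ9. Baiap2, which shapes protrusions, differed by −0.97 with ICG-001 and −0.81 with FJ9. The medians of the 5 related lists with FJ9 ran from −0.55 for the flotillins to −0.16 for the F-BAR and BAR proteins. The median was −1.67 over the caveolar genes, a set chosen on the fall of Cavin2 in this same comparison, so nothing is read from the contrast.

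**Figure D3:**
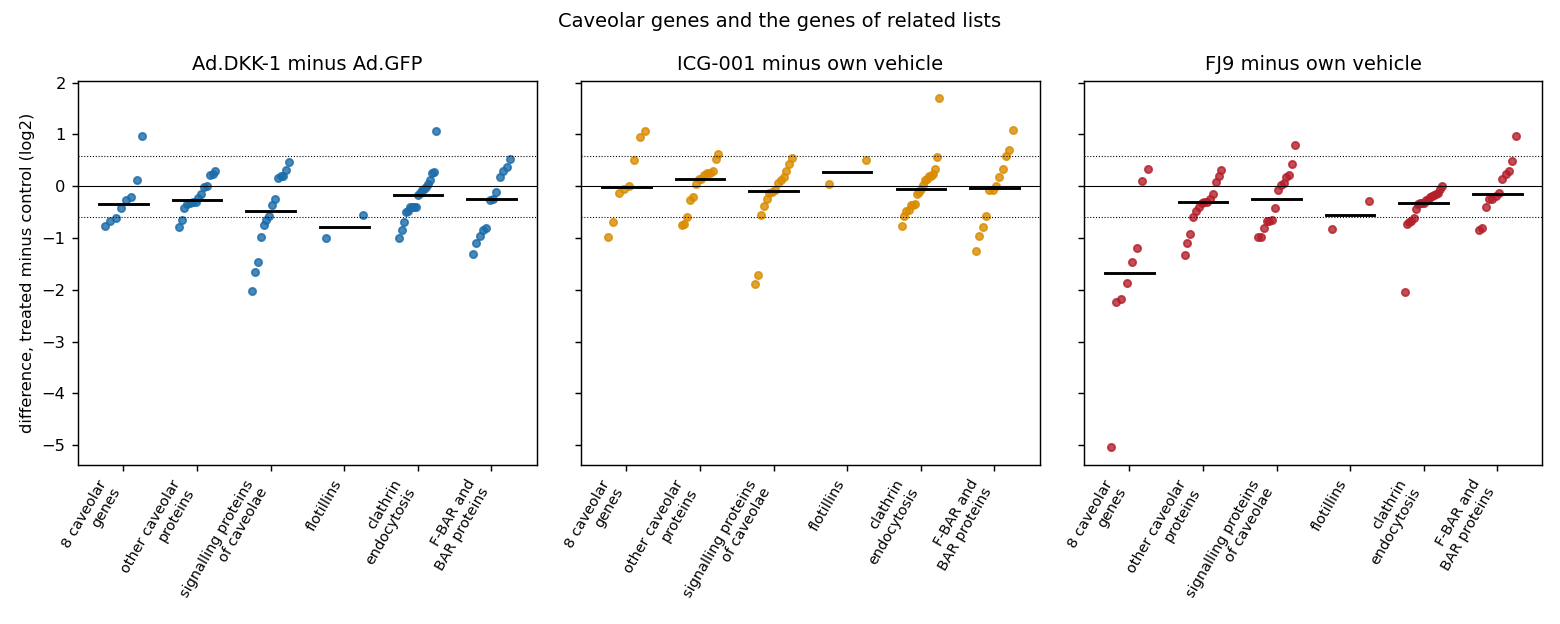
Log2 difference, treated minus own control (vertical axis), of each measured gene in the caveolar set and in 5 related lists, 1 panel per treatment; each point is a gene, thick bars are list medians and dotted lines 1.5-fold. The median of the caveolar set was −1.67 with FJ9 against −0.31 for other caveolar proteins and −0.32 for clathrin endocytosis. The caveolar set was chosen on the fall of Cavin2 with FJ9, so nothing is read from this contrast.

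Caveolae are also dense in endothelial and fat cells, so markers of cells that such cultures can hold were read beside the FJ9 difference. Of 15 endothelial markers 10 were measured and 6 passed the level filter. With FJ9 2 of the 10, Cdh5 and Erg, were at least 1.5-fold lower, near the 14.8% of filtered genes. The summed linear signal of the 10 was 1310.1 with FJ9 and 1769 on its vehicle array, within a range of 1111 to 1882 over the 6 arrays. Esam was the highest of the 10 on both, at 8.95 with FJ9 and 9.25 on the vehicle array. Cdh5, the cadherin that defines endothelium, was under the level filter at 4.57 to 5.86, and Erg, an endothelial transcription factor, read 6.42 and 8.28. All 6 adipocyte markers were measured and 3 passed, none was past 1.5-fold with FJ9, and their sum was 713 with FJ9 and 589 on the vehicle. The 19 stellate cell and myofibroblast markers summed to 55791 with FJ9 and 71786 on the vehicle, 9 were at least 1.5-fold lower (14.8% of filtered genes were) and none higher, and Lrat differed by −3.34. The part of any of these in the caveolar differences was not tested.

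The same sums for ICG-001 and its vehicle were 1703.5 and 1882 for the endothelial markers, 538 and 649 for the adipocyte markers, and 63783 and 73644 for the stellate markers. Muscle markers, the cells that use Cav3, had 8 of 11 genes past the filter and sums of 2368 with ICG-001 and 3173 on its vehicle. For Ad.DKK-1 and Ad.GFP the stellate sums were 52658 and 78046, with 12 of 19 markers lower against 20.8% of filtered genes. Hepatocyte markers had 2 of 9 measured genes past the filter, macrophage markers 2 of 12 and biliary markers 2 of 4. Macrophage markers had 9 of 12 members lower and none higher with Ad.DKK-1, where 20.8% of filtered genes were lower and 14.5% higher. Their median was −0.94, with sums of 680 against 1207 with Ad.GFP. At the floor of 4 lay 382 probe sets on the Ad.DKK-1 array and 222 on the Ad.GFP array. With ICG-001 5 of the 12 macrophage markers were lower and none higher, where 13.1% of filtered genes were lower and 12.6% higher. Their sums were 777 with ICG-001 and 1132 on its vehicle. The median of all probe sets was 7.11 with ICG-001 and 7.28 on its vehicle. As only 2 of the 12 passed the filter, these counts and sums rest mostly on low signals, which the shares of filtered genes leave out. The part of these markers in the differences of the caveolar genes was not tested. With FJ9 2 hepatocyte, 3 macrophage and no biliary markers were lower, against 14.8% of filtered genes, and their sums were 581, 893 and 391 against 625, 1282 and 427 on the vehicle array.

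Profiles over the 6 arrays were compared by Euclidean distance after each gene was centred on its own mean, over the 10025 filtered genes. The 5 genes nearest to Cavin2 were Scd2, a fatty acid desaturase (distance 1.25), Lmod1, a smooth muscle actin nucleator (1.498), Olfml1 (1.61), Lrat (1.84) and Cmklr1, a chemerin receptor (1.92). Lmod1 differed by −3.33 with FJ9, −0.25 with Ad.DKK-1 and 0.10 with ICG-001, and thus shared the narrow range of Cavin2 outside the FJ9 array. Scd2, Olfml1, Lrat and Cmklr1 were also at least 1.5-fold lower with Ad.DKK-1 and with ICG-001, which Cavin2 was not. Cav1 stood 13th and Cavin1 14th in nearness to Cavin2, at 2.32 and 2.33. At the same distances Cavin2 stood only 1366th in nearness to Cav1 and 5580th in nearness to Cavin1.

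The gene nearest to Cav1 was Fzd4, a Wnt receptor (0.66), and the next was Cav2 (0.96) among 10024 genes. Tbxa2r, the thromboxane receptor, Ppp1r3d, a glycogen-targeting phosphatase subunit, and the growth factor gene Pgf followed at 0.96, 1.00 and 1.01. All 5 were above their vehicle with ICG-001, by 0.47 to 0.96, and below it with FJ9, by −1.19 to −1.83. Nearest to Cavin1 were Ppp2r2b, a phosphatase regulatory subunit (0.44), the synaptotagmin Syt1 (0.47), Ldb2 (0.48), the annexin Anxa6 (0.52) and the peroxidasin Pxdn (0.55). Ehd2 stood 18th for Cavin1, at 0.73, Cavin3 114th, Cav1 138th and Cav2 153rd. Pacsin2 was far from all 3, at 6584th for Cavin2, 5399th for Cav1 and 7238th for Cavin1. A large decrease with FJ9 dominates this distance, so the order partly repeats the choice of the set.

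**Figure D4:**
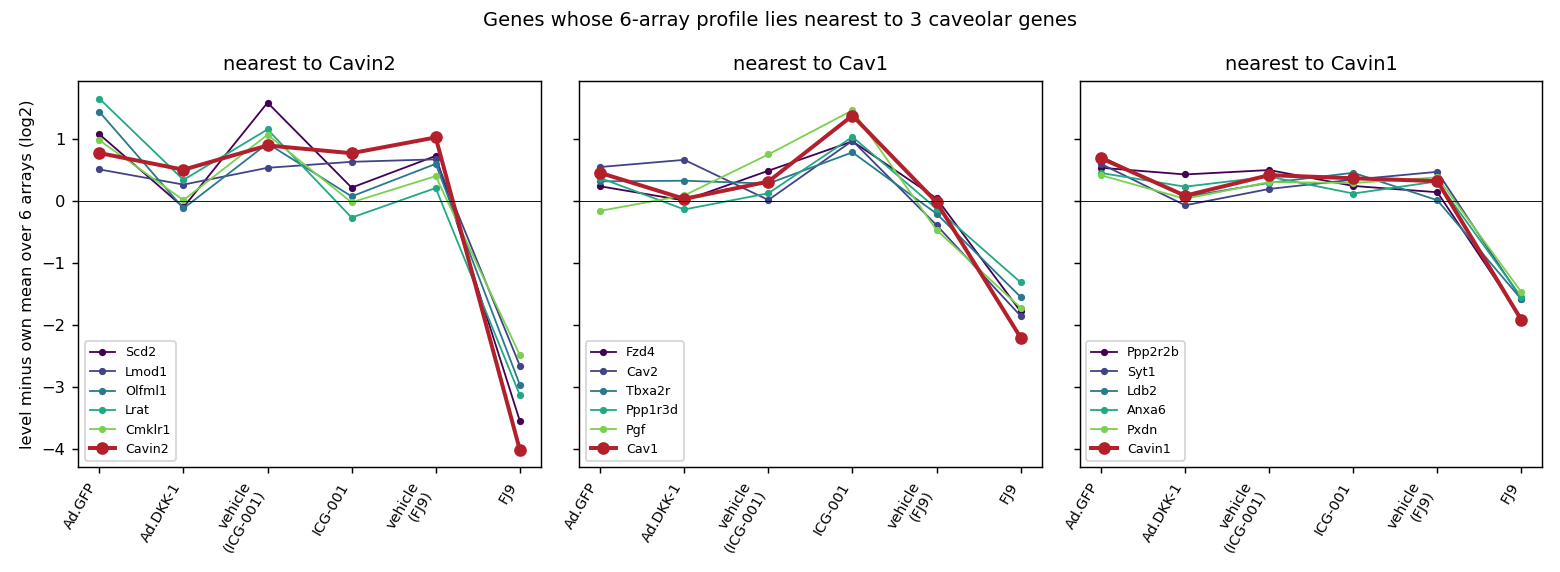
Log2 level minus the gene's own mean over the 6 arrays (vertical axis) for Cavin2, Cav1 and Cavin1 (thick red) and the 5 genes nearest to each; lines only link the arrays of 1 gene and have no order. The Cav1 panel peaks on the ICG-001 array, where Cav1 read 11.22, and every panel is lowest on the FJ9 array.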

How the data were processed

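Total RNA of 6 pools was hybridised to Affymetrix whole-transcript arrays. The deposited log2 values, 1 per probe set and array, come from the authors' use of Affymetrix Expression Console and RMA (per the submitters' processing notes). The build and software versions being not given in the sources used here, no coordinates are printed. The values were used as deposited. The platform annotation gave 15092 of 26988 probe sets 1 symbol, 323 several, and 11573 none. The probe set with the highest mean stood for each of 14322 genes. The 8 members matched RefSeq (GRCr8) by Entrez ID and symbol. Counts over all genes leave out those whose mean level was in the lowest 30%, at or under 6.39. Differences were computed with pandas 2.3.3 and numpy 2.4.6, and the loess alternative with statsmodels 0.14.6 (span 0.3). The counting was tested on simulated data. No test was run, because every group has 1 array, and the number of arrays limits the precision. The members, lists and rules were chosen with earlier results of these data known. Named were the 8 members, the genes next to Cavin2 with FJ9, the 5 nearest profiles of Cavin2, Cav1 and Cavin1, up to 3 genes past 1.5-fold per related list and comparison, and markers or other list genes for context. No promoter, protein or probe sequence was used here.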

Additional observations from a re-analysis of the deposited data

How the results depend on the processing

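Alternatives were centring each array on its median, repeating quantile normalization, loess correction, the mean of all probe sets of a gene, the other vehicle, a 2-fold limit and no level filter. Every member but Cav2 has 1 probe set, so for these the mean of all probe sets repeats the main value. For Cav2 it nearly does. With FJ9, the 3 cavins, Cav1, Cav2 and Ehd2 stayed at least 1.5-fold lower in all 5 alternatives run on their differences, Cavin2 between −5.15 and −4.91. With ICG-001, Cav1 stayed between 1.03 and 1.40 and Cav2 between 0.96 and 1.36. The count of genes past 1.5-fold with Ad.DKK-1 went from 4 to 2 with median centring, leaving Ehd2 and Pacsin2, and to 0 with a 2-fold limit. With ICG-001 the count stayed at 4 with median centring, but as 3 higher and 1 lower, because Pacsin2 (0.68) passed and Ehd2 (−0.52) did not. With ICG-001 the 2-fold limit left 1 gene, Cav1. Of the other comparisons of counts and medians, 41 moved little, and no difference past 1.5-fold changed sign. Median centring moved the median of all filtered genes with ICG-001 from 0.01 to 0.18, and between the vehicle arrays from 0.02 to 0.16. It turned the split of genes past 1.5-fold from 1449 higher and 2082 lower to 1874 and 1681 with Ad.DKK-1, and from 1267 and 1314 to 2218 and 754 with ICG-001. Between the vehicle arrays the split went from 245 and 521 to 575 and 265, to 457 and 407 with quantile normalization, and to 366 and 351 with loess. No paired analysis was possible because the arrays carry no replicate numbers and each group has 1 array. Signal near the floor limits Cavin2 and Cav2 with FJ9 and Cav3 on every array.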

Other observations

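In the RefSeq gene table of GRCr8, Cav2 and Cav1 are adjacent protein-coding genes on chromosome 4, with Tes before Cav2 and Met after Cav1. These neighbours were chosen by position after the values of the members were seen. Met, the receptor of hepatocyte growth factor, was 2.17 higher with ICG-001, beside 1.07 for Cav1 and 0.96 for Cav2, while Tes, a focal adhesion protein, differed by −0.03. With FJ9 Met differed by 0.49 and Tes by −0.35, against −2.19 for Cav1 and −1.46 for Cav2. With Ad.DKK-1 Tes was 1.07 higher and Met differed by 0.49. The neighbours of Cavin1 were Stat3 and Atp6v0a1, which differed by −0.27 and −0.16 with FJ9, where Cavin1 differed by −2.24. Tmeff2, after Cavin2 and under the level filter, differed by −0.69 with FJ9. Nop53 and Bicra, on either side of Ehd2, differed by 0.94 and 0.20 with FJ9, against −1.88 for Ehd2.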
